A study of Mus musculus with 6 samples.

Results

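The genes described here encode the vascular endothelial growth factor (VEGF) ligands, the angiopoietins and their receptor tyrosine kinases. Of the 10 listed (Vegfa, Vegfb, Vegfc, Pgf, Flt1, Kdr, Flt4, Angpt1, Angpt2 and Tek), 8 matched a row symbol of the deposited table of 13069 genes. Flt4 and Tek were not analysed here. The libraries came from mouse glioblastoma (GBM) cultures grown as neurospheres, floating clusters fed with FGF, EGF and the supplements N-2 and B-27. The 3 ATRX KO libraries carry the genotype label ATRX knockout, and the 3 ATRX WT libraries the label ATRX wild type. Both sets of tumours were started in neonatal C57BL/6 or FVB mice, by injecting the ventricles with Sleeping Beauty plasmids for a short hairpin against p53 and for NRAS. A further plasmid with a short hairpin against ATRX was or was not added, so the labels name both a hairpin and a knockout. The strain behind each culture is not given. Each genotype has 1 line code, C54B for ATRX KO and C39E for ATRX WT, so genotype and cell line cannot be told apart, and the p-values measure the spread between libraries of 1 line, which may be technical.

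VEGF-A is the main signal by which tissues short of oxygen call for new blood vessels. It binds 2 receptors on endothelial cells: KDR (VEGFR-2), which drives division and sprouting, and FLT1 (VEGFR-1), which binds tightly, signals weakly and in its soluble form acts as a decoy. VEGF-B and placental growth factor (PGF) bind FLT1, while VEGF-C acts on FLT4 and KDR and is known for lymphatic growth. Angiopoietin 1 activates the receptor TEK and keeps vessels quiet, and angiopoietin 2 opposes it in many settings and loosens vessels. In glioblastoma, tumour cells are a known source of VEGF-A, while the receptors are known mainly from the endothelium of the vessels.

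Reads in the table numbered 22177228 to 32477269 in ATRX KO, against 34966108 to 38039847 in ATRX WT. Atrx itself stood at 14.1, 16.6 and 17.1 RPKM (reads scaled by gene length and library size) in ATRX KO against 22.3, 22.7 and 21.6 in ATRX WT. The log2 difference was -0.48 (limma adjusted p = 0.00013), and transcript was present in every library. Of 12201 genes tested, 89.5% passed at an adjusted p under 0.05 (limma, two-sided, Benjamini-Hochberg), 43.6% higher and 45.9% lower in ATRX KO, with a median log2 difference of -0.02. With library totals taken as the reads in the table, rather than the authors' own sizes, that median becomes -0.22, and 35.9% of genes are called higher and 54.8% lower. Log2 fold changes subtract ATRX WT from ATRX KO in deposited units, whose prior count of 2 reads on average understates the change of low genes, and a gene said to rise or fall by a value did so on that log2 scale.

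Markers of cell type moved with the groups as well. Of 10 neural stem and glial markers tested, the labelled lineage, 9 fell and 1, Sox9, rose by 1.01. Their summed level was 147 to 152 RPKM in ATRX KO, against 3340 to 3408 in ATRX WT, and Fabp7, Olig1 and Olig2 had 4, 0 and 2 reads in ATRX KO. Nes and Sox2, genes of neural stem cells named after their values were seen, were present in both lines, at 28.3 and 19.8 RPKM in ATRX KO against 91.2 and 80.4. Of 9 fibroblast and mesenchymal markers tested 8 rose and 1, Vim, fell by 0.89, with a median log2 fold change of 8.40. Vim made up nearly all of their sum in ATRX WT, and without it the summed level was 1570 to 1722 RPKM in ATRX KO, against 9.05 to 9.70 in ATRX WT. Mural cell markers gave 5 rises and 1 fall of 6, with Pdgfrb up by 8.14 and Rgs5 down (-8.01), and summed levels of 70.8 to 76.6 against 24.9 to 25.2 RPKM. Of all genes tested, 43.6% were higher and 45.9% lower. A mean log2 RPKM of 0 or above was held by 5 of the listed neural markers in ATRX KO and 10 in ATRX WT. For the fibroblast and mesenchymal list these counts were 9 and 4, and for the mural list 5 and 3. Several markers of each list thus passed the filter for testing (log2 RPKM at or above 0 in 3 or more libraries) through 1 group alone, which fixed their direction.

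Vegfa, Pgf and Flt1 rose in ATRX KO and Vegfc and Angpt2 fell, while Vegfb gave no call. That is 3 higher, 2 lower and 1 without a call among the 6 members tested, a share near the 89.5% background of all genes, so the count itself says nothing particular about the family. Their median log2 difference was 0.37, beside -0.02 for all genes tested. Angpt1 and Kdr were below the filter (3 or more libraries with log2 RPKM at or above 0) and were read from a fit of all 13069 genes, in which 89.5% passed. In that fit Angpt1 rose and Kdr gave no call. Among the members tested, Vegfc passed the filter through its ATRX WT libraries alone. By size, 8.17% of the genes tested rose by as much as Vegfa or more, and 9.47% fell by as much as Vegfc or more. In bulk libraries fewer cells of a type and less RNA per cell cannot be told apart. Overlap between groups is given below as a description, and the share of all genes without overlap was not worked out.

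**Figure D1:**
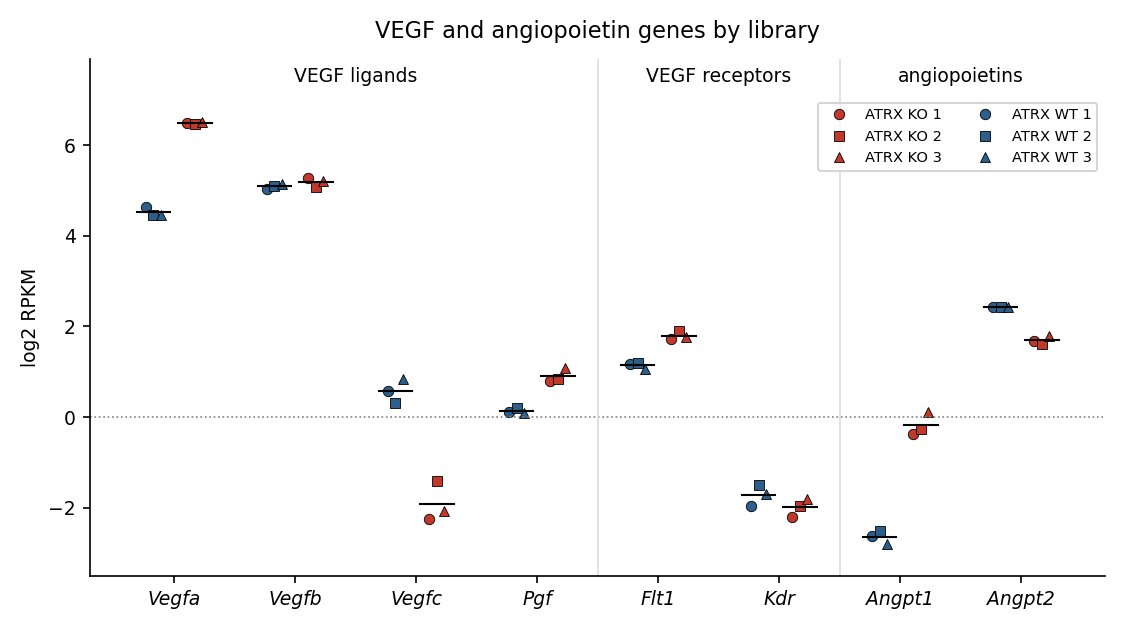
The log2 RPKM (vertical axis) of each family member in every library, with red for ATRX KO, blue for ATRX WT, a marker shape for each replicate and a bar at the group mean. Vegfa, Pgf, Flt1 and Angpt1 lie wholly higher in ATRX KO and Vegfc and Angpt2 wholly lower, whereas Vegfb and Kdr overlap. The share of all genes without overlap was not worked out, and 89.5% of genes tested passed the threshold.

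**Figure D2:**
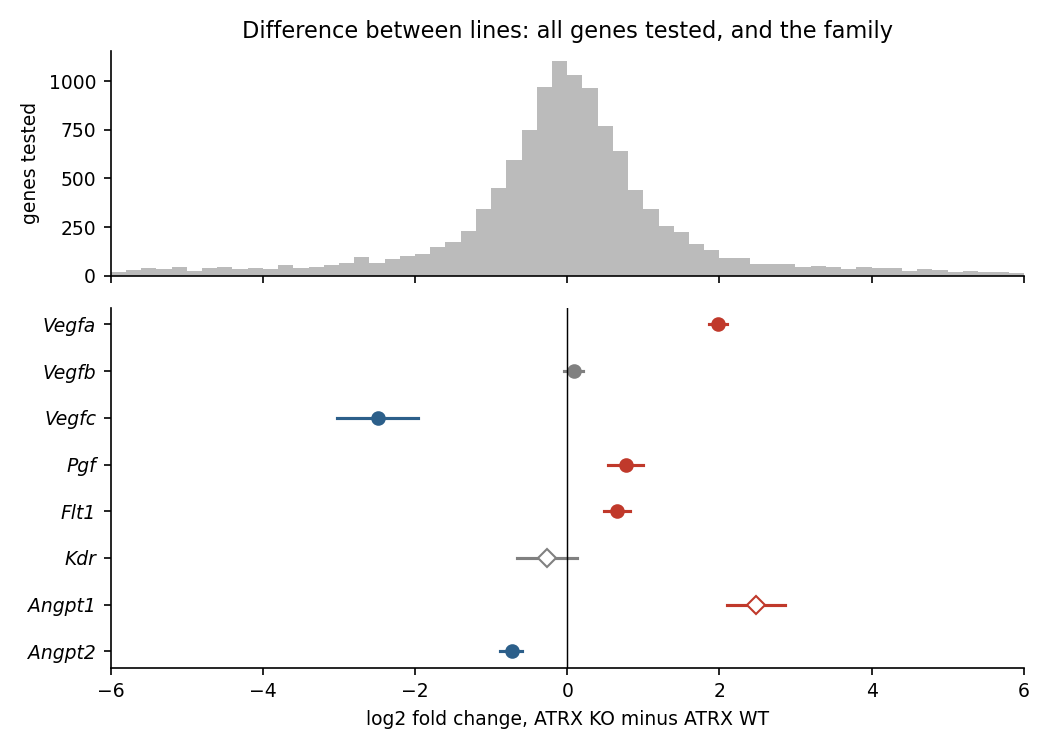
Log2 fold change of each family member (lower panel, point with 95% interval from limma) below a histogram of all 12201 genes tested, drawn from -6 to 6 with 533 genes beyond. Red and blue mark members higher and lower in ATRX KO, grey no call, and open diamonds Kdr and Angpt1, which were below the filter. The bulk of the genes lies close to 0, Vegfa (1.98) and Angpt1 (2.48) lie on the right flank, and Vegfc (-2.49) on the left.

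The ligands spanned a wide range of levels, and Vegfa had the highest in ATRX KO. Vegfa (ENSMUSG00000023951.17, chromosome 17, 46016993 to 46032369, GRCm38) had 90.7, 88.1 and 91.8 RPKM in the ATRX KO libraries (replicates 1, 2 and 3, the order used throughout) and 25.0, 21.9 and 21.9 in the ATRX WT libraries. All ATRX KO libraries were far above all ATRX WT libraries, and the spread within a group was small beside the gap. The means were 90.2 ± 1.92 and 22.9 ± 1.77 RPKM (SD, n = 3 each), a 3.94-fold higher level. The log2 fold change was 1.98 (SE 0.0513, limma adjusted p = 1.2e-09). In rank, Vegfa moved from above 71.4% of the table's genes in ATRX WT to above 93.0% in ATRX KO.

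Vegfb, a FLT1 ligand known more for metabolic and survival effects than for vessel growth, was nearly level. Its values were 38.6, 33.5 and 36.9 RPKM in ATRX KO and 32.6, 34.6 and 35.3 in ATRX WT, so the groups overlapped. The log2 difference was 0.09 (95% interval -0.04 to 0.21, limma adjusted p = 0.16). Without ATRX KO replicate 2, its lowest ATRX KO library, the difference was 0.14 with limma adjusted p = 0.014. It turned to -0.11 with scaling by reads in the table and to -0.04 after quantile normalization. Vegfb (ENSMUSG00000024962.13) lies on chromosome 19, 6982473 to 6987651.

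Vegfc moved against Vegfa. It had 10, 17 and 8 reads in ATRX KO and 103, 93 and 131 in ATRX WT, or 0.208, 0.378 and 0.238 against 1.49, 1.25 and 1.79 RPKM. Each ATRX WT library was well above the highest ATRX KO library. The log2 fold change was -2.49 (SE 0.232, limma adjusted p = 7.2e-06). Only its ATRX WT libraries reached a log2 RPKM of 0, so Vegfc passed the filter through the group where it was higher. From summed reads over summed library sizes, the ATRX KO level was 0.163 of that in ATRX WT (95% counting interval 0.112 to 0.232, which covers counting error only). The size rests on few reads, and the log2 difference shrank to -0.97 on a log2(RPKM + 1) scale and to -0.98 after quantile normalization. Vegfc (ENSMUSG00000031520.6) lies on chromosome 8, 54077606 to 54187096.

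Pgf, a FLT1 ligand first found in placenta, was low in both lines and higher in ATRX KO. Its values were 1.73, 1.81 and 2.13 RPKM in ATRX KO and 1.08, 1.15 and 1.07 in ATRX WT. The groups did not overlap, and the rise was smaller than that of Vegfa. The log2 fold change was 0.77 (SE 0.1, limma adjusted p = 7.4e-05), and 1.93 after quantile normalization. Its 237 ATRX KO reads and 211 ATRX WT reads came from libraries of unequal size. Pgf (ENSMUSG00000004791.7) lies on chromosome 12, 85166635 to 85177790.

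The makeup of the ligand pool differed between the lines. Summed over Vegfa, Vegfb, Vegfc and Pgf, the ATRX KO libraries reached 124 to 131 RPKM, and ATRX WT libraries 58.9 to 60.1. Vegfa made up 69.1%, 71.1% and 70.0% of that sum in ATRX KO and 41.5%, 37.1% and 36.5% in ATRX WT. In ATRX WT Vegfb was the larger part, with 54.2% to 58.8%, while in ATRX KO it made up 27.1% to 29.4%. Vegfc was 2.12% to 2.98% of the pool in ATRX WT and 0.159% to 0.305% in ATRX KO. These shares describe transcript per length of gene and were not tested.

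**Figure D3:**
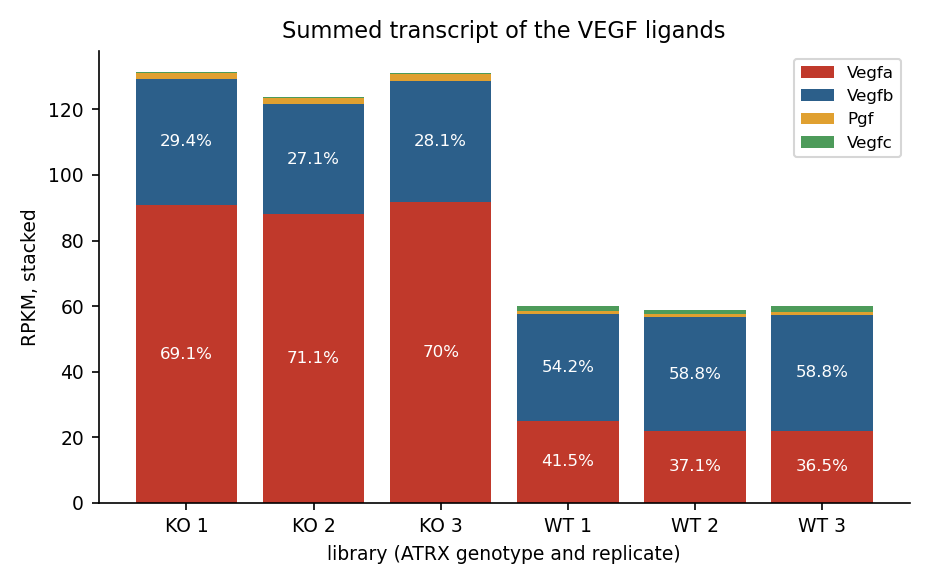
RPKM of the 4 VEGF ligands stacked for each library (bars start at 0), with the percent of the sum printed for Vegfa and Vegfb. Vegfa is the larger part in all 3 ATRX KO libraries and Vegfb in all 3 ATRX WT libraries.

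The stretches just before the transcription starts are shown for the members in the table whose window overlaps no annotated exon: Vegfa, which rose most of those tested, Vegfc, which fell most, Vegfb, which gave no call, and the receptor gene Flt1. Each is the 250 bases before a RefSeq start (GRCm38.p6), written 5′ to 3′ along the gene. Capitals mark matches on either strand to a GC box (GGGCGG, the site of Sp1-like factors), the core bound by hypoxia-inducible factors (ACGTG or GCGTG), an AP-1 site (TGACTCA or TGAGTCA) or a TATA box (TATAAA). None of these motifs contains another, though matches can overlap.
Vegfa (chr17:46032378-46032627, minus strand): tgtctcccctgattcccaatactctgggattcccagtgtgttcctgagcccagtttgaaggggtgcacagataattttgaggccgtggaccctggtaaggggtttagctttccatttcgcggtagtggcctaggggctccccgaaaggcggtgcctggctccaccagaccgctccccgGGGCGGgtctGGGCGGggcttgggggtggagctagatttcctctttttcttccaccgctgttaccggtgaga
Vegfc (chr8:54077282-54077531, plus strand): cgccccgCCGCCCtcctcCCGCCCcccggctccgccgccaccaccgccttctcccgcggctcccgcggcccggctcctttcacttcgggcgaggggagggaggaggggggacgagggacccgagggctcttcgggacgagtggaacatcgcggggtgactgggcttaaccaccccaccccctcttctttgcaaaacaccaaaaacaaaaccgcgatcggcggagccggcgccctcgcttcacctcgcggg
Vegfb (chr19:6987652-6987901, minus strand): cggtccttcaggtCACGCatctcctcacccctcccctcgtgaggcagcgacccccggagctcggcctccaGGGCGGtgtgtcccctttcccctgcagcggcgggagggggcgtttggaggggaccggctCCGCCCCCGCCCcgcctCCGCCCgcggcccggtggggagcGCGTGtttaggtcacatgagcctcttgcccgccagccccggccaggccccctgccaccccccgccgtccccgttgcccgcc
Flt1 (chr5:147726012-147726261, minus strand): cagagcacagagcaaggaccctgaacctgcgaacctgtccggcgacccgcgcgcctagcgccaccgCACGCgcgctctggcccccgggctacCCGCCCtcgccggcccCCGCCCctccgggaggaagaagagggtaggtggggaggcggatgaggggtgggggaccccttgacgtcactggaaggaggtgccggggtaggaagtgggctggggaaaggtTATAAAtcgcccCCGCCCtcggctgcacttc
The Vegfa window held 2 GC boxes and the Vegfc window 2, Vegfb held 4 and Flt1 3. A GC box stood in 32.7% of all 32851 windows of this length. The core bound by hypoxia-inducible factors was found 2 times in the Vegfb window and 1 time in that of Flt1, and 38.6% of all windows hold it. The Vegfa and Vegfc windows had no match to those letters, which speaks only of these 250 bases. The 250 bases before a further RefSeq start of Vegfa, which lies inside the gene and overlaps its exon, held 2 such cores and 1 GC box. Flt1 alone of the 4 had a TATA box, present in 12.4% of windows, and none had an AP-1 site, present in 4.46%. GC content was 59.2% for Vegfa, 71.6% for Vegfc, 76.4% for Vegfb and 70.4% for Flt1. Vegfa and Vegfc, which moved in opposite directions, had the same motif counts in the windows printed.

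Among the receptors, Flt1 was measurable and higher in ATRX KO, whereas Kdr was scarce in both lines. Flt1 (ENSMUSG00000029648.13, chromosome 5, 147561604 to 147726011) stood at 3.32, 3.75 and 3.42 RPKM in ATRX KO and at 2.26, 2.28 and 2.09 in ATRX WT. No ATRX KO library fell as low as an ATRX WT library. The log2 fold change was 0.66 (SE 0.0744, limma adjusted p = 2.7e-05), and 1.05 after quantile normalization. A total per gene does not separate the soluble decoy from the full receptor. Per length, Vegfa exceeded Flt1 23.5 to 27.4 times in ATRX KO, against 9.62 to 11.1 times in ATRX WT.

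Kdr (ENSMUSG00000062960.10, chromosome 5, 75932827 to 75978458) had 34, 35 and 31 reads in ATRX KO and 50, 75 and 64 in ATRX WT. In RPKM that is 0.217, 0.257 and 0.285 against 0.256, 0.350 and 0.307, with overlap between the groups. The log2 difference was -0.26 (95% interval -0.66 to 0.13, limma adjusted p = 0.18 in the fit of all genes). It was -0.46 with limma adjusted p = 0.031 under scaling by reads in the table. After quantile normalization it turned to 1.63 with limma adjusted p = 2e-05, so neither a direction nor a difference is given for it.

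Endothelial markers, which matter most for reading Flt1 and Kdr, were of mixed direction. Of 19 listed, 8 were tested, and 6 rose and 2 fell, with a median of 3.59. Of all genes tested, 43.6% were higher and 45.9% lower. A mean log2 RPKM of 0 or above was held by 7 of the markers in ATRX KO and 3 in ATRX WT. Several thus passed the filter through 1 group alone, which fixed their direction. The summed level of the 8 was 73.5 to 82.3 RPKM in ATRX KO, against 51.5 to 52.8 in ATRX WT. The rises were led by Cd34 (log2 fold change 7.83), the junction protein Cdh5 (7.19) and Emcn (5.41), and the falls were Esam (-4.28) and Plvap (-2.36), itself an abundant marker in ATRX WT. The other 11, among them Pecam1 and Vwf, were not analysed here. Among 10 markers of microglia and macrophages, the 2 tested, Tmem119 (6.04) and Cd68 (2.25), rose, with a summed level of 30.6 to 35.1 against 5.60 to 6.36 RPKM. The rest of that list, among them Ptprc and Csf1r, were not analysed here, so the 2 do not show whether such cells were present. Of 5 platelet markers 1, Itga2b, was tested and rose by 0.92. Like Tmem119, it passed the filter through ATRX KO alone, which fixed the direction. The part of the endothelial, microglial and platelet markers in the values of Flt1, Kdr and the ligands was not tested.

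The co-receptors rose, and Nrp2 by a larger log2 fold change than any of the 8 family members. Of 8 listed co-receptor and other family genes 3 were tested, and all 3 rose (median 2.11), beside 43.6% of all genes tested. Nrp2, the neuropilin that pairs with FLT4 and binds VEGF-C as well as semaphorins, stood at 52.3, 47.7 and 48.1 RPKM in ATRX KO and at 0.805, 0.784 and 0.790 in ATRX WT. That is a log2 fold change of 5.96 (SE 0.0526, limma adjusted p = 4.6e-12), from 31091 reads against 751. Nrp2 passed the filter through ATRX KO alone, which fixed its direction. Nrp1, the neuropilin that presents VEGF-A to KDR, stood at 17.9, 20.3 and 19.2 RPKM in ATRX KO and at 5.89, 5.83 and 6.03 in ATRX WT (log2 fold change 1.69, SE 0.0523, limma adjusted p = 3.7e-09). For the semaphorin receptor Plxnd1 the log2 fold change was 2.11 (limma adjusted p = 4.5e-10). Both neuropilins also serve semaphorins, and these totals do not separate those roles.

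Among genes that mature VEGF-C, Ccbe1 and Pcsk7 fell and Furin rose. VEGF-C is made as a precursor that is cut first by proprotein convertases and then by ADAMTS3 with the help of CCBE1. Of 8 genes listed for this step and for lymphatic vessels 5 were tested, and 2 rose and 3 fell, with a median of -0.66. Of all genes tested, 43.6% were higher and 45.9% lower. Ccbe1 fell from 19.0 ± 0.593 to 3.13 ± 0.187 RPKM (log2 fold change -2.61, limma adjusted p = 4e-10). Adamts3, below the filter and chosen after its values were seen, had 243, 269 and 287 reads in ATRX WT and 0, 2 and 0 in ATRX KO, a ratio of 0.00382 (95% counting interval 0.000462 to 0.0138). Of the convertases, Furin rose by 2.02 and Pcsk7 fell by 0.66. The lymphatic markers moved apart: the transcription factor Prox1, also known from neural precursors, fell by 5.76, and podoplanin (Pdpn), also known from fibroblasts and glioma cells, rose by 7.53. Prox1 passed the filter through ATRX WT alone and Pdpn through ATRX KO alone, which fixed their directions.

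The angiopoietins moved in opposite directions. Angpt1 (ENSMUSG00000022309.9, chromosome 15, 42424723 to 42676977) had 99, 92 and 96 reads in ATRX KO and 24, 28 and 22 in ATRX WT, that is, 0.772, 0.828 and 1.09 RPKM against 0.163, 0.174 and 0.143. Every ATRX KO library was several times above every ATRX WT library. The log2 fold change was 2.48 (SE 0.165, limma adjusted p = 7.7e-07 in the fit of all genes), and the ratio of summed reads was 5.92 (95% counting interval 4.57 to 7.75). On a log2(RPKM + 1) scale the difference was 0.71 and after quantile normalization 4.07, so its size depends on how low values are treated.

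Angpt2 (ENSMUSG00000031465.6, chromosome 8, 18690263 to 18741562) stood at 3.17, 3.06 and 3.48 RPKM in ATRX KO and at 5.38, 5.39 and 5.35 in ATRX WT. The ATRX WT values were almost identical and all above those of ATRX KO. The log2 fold change was -0.73 (SE 0.0631, limma adjusted p = 4.3e-06). As a ratio of levels, formed after both values were seen, Angpt2 exceeded Angpt1 31.0 to 37.4 times in ATRX WT libraries and 3.21 to 4.11 times in ATRX KO libraries. Angpt2 thus stayed the more abundant angiopoietin transcript in all 6 libraries.

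Ordered by mean RPKM, ATRX KO held Vegfa, Vegfb, Flt1, Angpt2, Pgf, Angpt1, Vegfc and Kdr. Flt1 (3.49 ± 0.228) and Angpt2 (3.24 ± 0.218) overlapped there, as did Vegfc (0.275 ± 0.0906) and Kdr (0.253 ± 0.0341). In ATRX WT the order was Vegfb, Vegfa, Angpt2, Flt1, Vegfc, Pgf, Kdr and Angpt1, and no neighbouring pair overlapped. Vegfa and Vegfb were the 2 highest in both lines, and Kdr was among the 2 lowest in both.

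Relays below the receptors moved in both directions. Of all genes tested, 89.5% were called, 43.6% higher and 45.9% lower. Of 26 genes listed for VEGF receptor signalling 22 were tested, with 13 rises, 7 falls and 2 without a call (median 0.13). Rises no longer outnumbered falls under scaling by reads in the table, with 10 rises and 10 falls, and quantile normalization gave 10 and 8. The largest rises were the phospholipase Plcg2 (log2 fold change 2.93), the adaptor Shb, which binds KDR (1.62), and the focal adhesion protein paxillin, Pxn (1.49). The largest falls were the Src-family kinase Fyn (-1.58), Src itself (-0.99) and Pik3r1, a regulatory subunit of PI3-kinase (-0.95). Of the 6 tested of 9 relays and partners of TEK, 2 rose, 2 fell and 2 gave no call. The integrin chain Itga5, which can bind angiopoietins, rose by 4.12 and the NF-kappa-B inhibitor Tnip2 by 0.54, while the adaptor Grb14 fell by 2.29 and Foxo1, the factor that TEK signalling holds out of the nucleus, fell by 0.28. The call of Foxo1 was lost after quantile normalization (-0.11, limma adjusted p = 0.072). Under scaling by reads in the table, the falls numbered 4. These relays serve many other receptors.

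Oxygen sensing is the best known control of Vegfa, and its 2 HIF alpha subunits moved apart. Hif1a stood at 136, 143 and 143 RPKM in ATRX KO and at 61.6, 60.6 and 59.1 in ATRX WT (log2 fold change 1.22, SE 0.0307, limma adjusted p = 1e-09). Epas1, which encodes HIF-2 alpha, stood at 3.95, 4.22 and 4.24 RPKM against 10.2, 10.9 and 11.4 (log2 fold change -1.39, SE 0.0571, limma adjusted p = 2.3e-08). The groups of each did not overlap, and Hif1a exceeded Epas1 33.8 to 34.4 times in ATRX KO, against 5.20 to 6.02 times in ATRX WT. HIF alpha proteins are set mainly by degradation, which these transcript levels do not show. The oxygen sensing list had 9 tested genes, with 3 rises, 5 falls and 1, Vhl, without a call (median -0.08). Of all genes tested, 89.5% were called, 43.6% higher and 45.9% lower, so the count itself says nothing particular about this list. Under scaling by reads in the table Vhl was lower (-0.27, limma adjusted p = 0.0013), and the list gave 2 rises and 6 falls. The partner Arnt rose by 0.54 and the asparagine hydroxylase Hif1an by 0.22, although Hif1an was at 0.02 (limma adjusted p = 0.7) under scaling by reads in the table. Falls besides Epas1 included the prolyl hydroxylase Egln1, which marks HIF for destruction (-1.16), and Arnt2 (-0.71). The other falls, Egln2 (-0.16) and Egln3 (-0.08), named after their values were seen, were both without a call when ATRX WT replicate 2 was left out, and Egln3 also under the replicate block (limma adjusted p = 0.052).

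Among other genes known to respond to hypoxia, more rose than fell. Of 23 tested from a list of 25 without Vegfa, 16 rose and 7 fell, with a median of 0.83, beside 43.6% and 45.9% of all genes tested. The largest rises were the carbonic anhydrase Car9, from 17 to 443 reads (log2 fold change 4.88), the collagen prolyl hydroxylase subunit P4ha2 (2.79) and the kinase Pdk1, which holds pyruvate out of mitochondria (2.37). Car9 passed the filter through ATRX KO alone, which fixed its direction. The glucose transporter Slc2a1, chosen after its value was seen, rose by 1.88, close to Vegfa. The largest falls were the vasodilator peptide adrenomedullin, Adm, from 83.3 ± 2.58 to 4.85 ± 0.694 RPKM (-4.11), the glycolytic regulator Pfkfb3 (-2.98) and the neuronal glucose transporter Slc2a3 (-2.35). The oxygen supply of the cultures is not given in the labels.

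**Figure D4:**
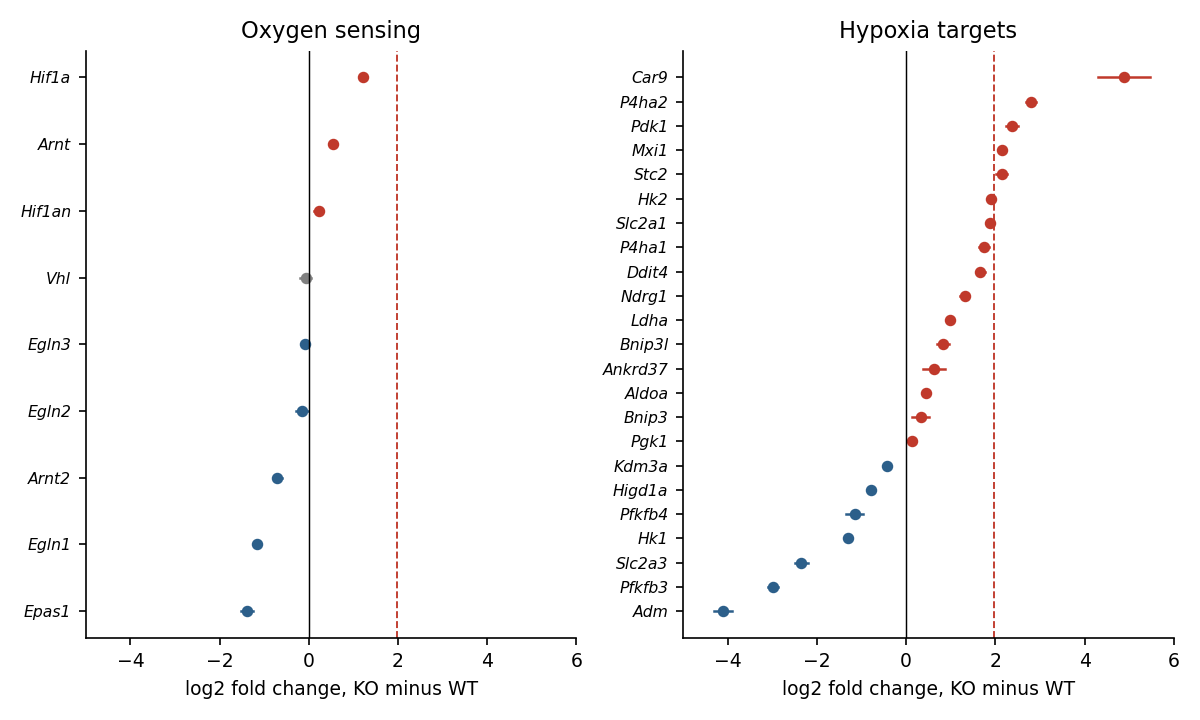
Log2 fold change with its 95% interval from limma for the 9 oxygen sensing genes (left) and 23 hypoxia targets (right) tested, red for higher in ATRX KO, blue for lower and grey for no call. The dashed line is at the fold change of Vegfa (1.98). Hif1a lies at 1.22 and Epas1 at -1.39, and 16 of the 23 targets lie to the right of 0.

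Other angiogenic factors were mostly higher. Of 14 tested from a list of 21, 12 rose and 2 fell (median 2.09), beside 43.6% and 45.9% of all genes tested. Without a filter, 4 of 16 fell. Esm1, an endothelial proteoglycan known to follow VEGF signalling, had 2531, 2011 and 1662 reads in ATRX KO and 2, 0 and 0 in ATRX WT, a ratio of 4734 (95% counting interval 1310 to 39090). The secreted protein Angptl2 rose by 3.99 and Ctgf by 3.61. A mean log2 RPKM of 0 or above was held by 14 of these factors in ATRX KO and 11 in ATRX WT. Esm1 and Ctgf were among those that passed the filter through ATRX KO alone, which fixed their direction. The falls were the Notch ligand Jag1 (-1.0) and pleiotrophin, Ptn (-0.43). Secreted and intracellular brakes on vessel growth went both ways, with 6 rises and 9 falls of 15 tested and a median of -0.65. Thbs2 rose by 10.08, the pigment epithelium factor Serpinf1 by 6.63 and Thbs1 by 5.24. Vash1 (vasohibin) fell by 9.26, the vasostatin precursor Chga by 5.23 and the repulsive semaphorin Sema3e by 2.41. Thbs2 passed the filter through ATRX KO alone, and Vash1 and Chga through ATRX WT alone, which fixed their direction.

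Genes near the 8 members in the table moved in both directions, while those near Tek rose. Of all genes tested, 43.6% rose and 45.9% fell. Within 1 Mb of the start of Vegfa, 40 genes were tested, of which 20 rose and 17 fell, with a median of 0.11, and the nearest 3 were Mrps18a (0.53), Rsph9 (-1.09) and Mad2l1bp (0.16). Around Vegfb 16 of 45 rose and 24 fell (median -0.16), around Pgf 13 of 29 rose and 15 fell (-0.10), and around Flt1 5 of 13 rose and 5 fell (-0.03). The nearest to Vegfb were Dnajc4 (-0.16, no call), Fkbp2 (-0.69) and Nudt22 (-0.17), to Pgf Rps6kl1 (-5.43), Eif2b2 (0.96) and Dlst (0.50), and to Flt1 Pomp (0.14), Slc46a3 (-3.66) and Pan3 (-0.03, no call). Scaling by reads in the table turned Mad2l1bp to -0.04 and Pomp to -0.06 and gave calls to Dnajc4 (-0.36) and Pan3 (-0.22), and quantile normalization ended that of Nudt22 (-0.04, limma adjusted p = 0.51). Under that scaling 16 neighbours of Vegfa rose and 20 fell, and around Flt1 3 rose and 8 fell. The 5 neighbours of Vegfc included 3 falls, namely the DNA glycosylase Neil3 (-2.41), Wdr17 and Gpm6a, and 2 rises, Spcs3 (0.68) and Aga (0.73). Around Kdr 7 of 13 rose and 5 fell (0.16), with Srd5a3 (0.63), Tmem165 (0.72) and Clock (-0.24) nearest. Kdr lies beside the receptor kinase genes Kit and Pdgfra, a cluster known to be gained together in some human gliomas. These neighbours, chosen after their values were seen, moved apart, Kit from 5.33 ± 0.0948 to 0.0708 ± 0.0164 RPKM (-6.26) and Pdgfra from 3.41 ± 0.135 to 31.5 ± 2.03 RPKM (3.21). Angpt1 had 2 tested neighbours, Eif3e (0.77) and Emc2 (-0.40), and Angpt2 had 3, Agpat5 (0.07), Mcph1 (0.31) and Xkr5 (-1.53). The call of Agpat5 was lost or turned under 8 of the alternatives. Around the gene position of Tek 6 of 6 tested neighbours rose, with a median of 1.4, namely Ift74 (0.78), Plaa (1.34), Caap1 (1.59), Mysm1 (2.01), Jun (1.46) and Fggy (0.22), the last without a call under several alternatives, among them scaling by reads in the table (0.03). Around Flt4 9 of 20 rose and 7 fell (median 0.16, and -0.04 under that scaling), with Cnot6 (-0.49), Gfpt2 (1.47) and Mapk9 (-0.30) nearest.

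**Figure D5:**
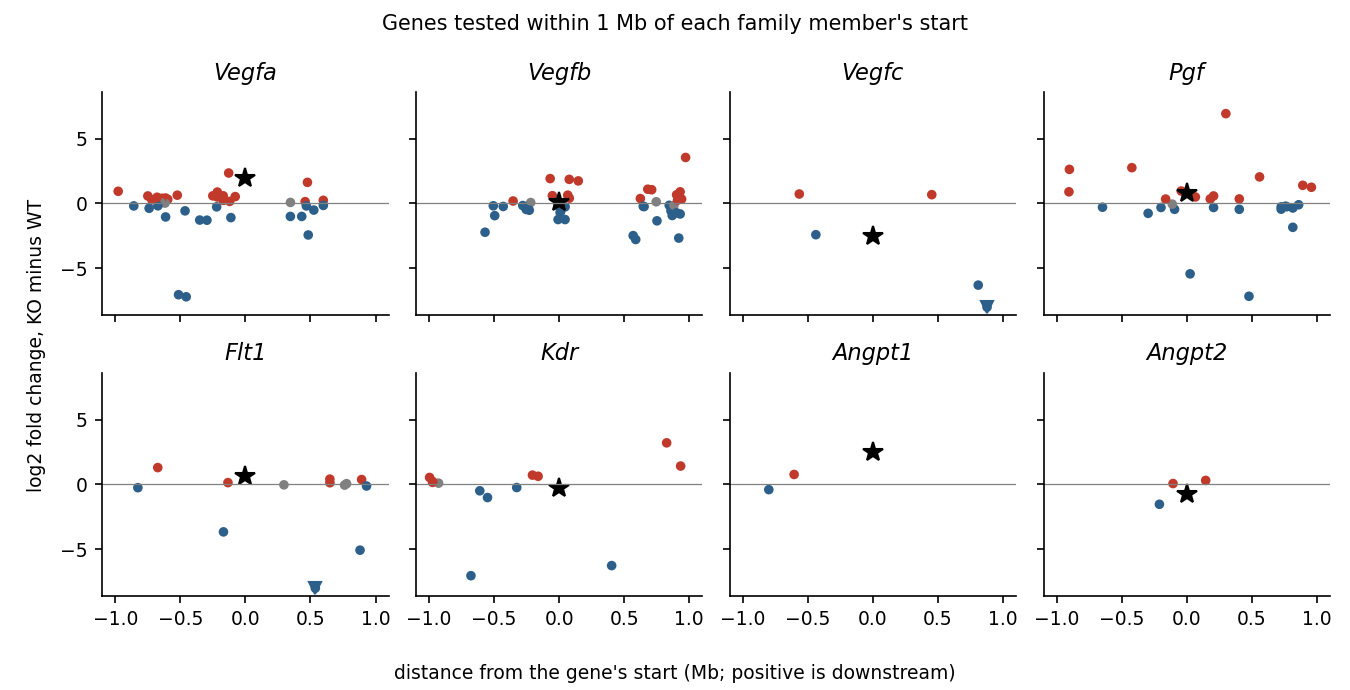
Log2 fold change of every gene tested within 1 Mb of each of the 8 family members in the table (dots, red for higher in ATRX KO, blue for lower, grey for no call) by distance from the member's start, with the member as a black star. Triangles stand at the lower limit for 2 genes that fell by more than 8. The star of Vegfa lies above most of its 40 neighbours.

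Vegfa and Vegfc were also set beside the genes most like them over the 6 libraries, by the root mean square difference in log2 RPKM. The 3 nearest to Vegfa were the adhesion protein Parvb (0.0807), the RNA-binding protein Rbms1 (0.121) and the hyaluronan receptor Cd44 (0.133), with log2 fold changes of 2.01, 1.96 and 2.07. The 3 nearest to Vegfc were Dlk1 (0.220), Acot11 (0.264) and Drp2 (0.264), with -2.58, -2.88 and -2.16. The likeness is over 6 libraries in 2 groups and is given as a description.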

How the data were processed

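RNA was sequenced from 3 ATRX KO and 3 ATRX WT libraries. Per the labels' protocols, 4 ug of total RNA went into a stranded mRNA kit, sequenced from both ends at 42 nt. Log2 RPKM values of 13069 genes were deposited by the authors. FastQC and Trim Galore, the aligner STAR 2.5.3a, the counter HTSeq 0.11.2 and the package edgeR 3.20.9 are named per the submitters' processing notes. Builds mm9 and mm10 are both listed there with no role, and the filter on low genes is not given in the sources used here.

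Whole reads were recovered from the steps of the log2 values for 100% of genes (tolerance 0.0001 reads), with depths of 22177228 to 38039847 reads in the table. Depth sets the precision of low members, and intervals of read ratios cover counting error only. The 12201 genes at or above a log2 RPKM of 0 in 3 or more libraries were tested with limma 3.58.1 in R 4.3.3 (empirical Bayes with a mean-variance trend) on the deposited values and Benjamini-Hochberg adjustment. Members below that filter were read from the same fit without it. The members and the 14 other gene lists were chosen with earlier results of these data known. Named were every member, Hif1a, Epas1, Nrp1, Nrp2, Tie1 and Atrx, up to 3 rises and 3 falls per list, the 3 nearest tested neighbours, and the 3 genes most like the members with the largest rise and fall. Tie1 was not analysed here. Lists are given by counts and medians with no set test. Positions were read from the GENCODE M21 annotation (GRCm38), where 12598 symbols had 1 position. Promoter sequences are from RefSeq (GRCm38.p6), with an entry for 8 of the 10 listed members. The recovery of reads was tested on simulated reads, and the fit on simulated counts in which few genes changed. With 89.5% of genes called here that setting differs, so it does not bear on the scaling between the lines. Alternatives were no filter, scaling by reads in the table, log2(RPKM + 1), a prior of 0.5 reads, limma voom on recovered reads, quantile normalization, no trend, a replicate block and each library left out.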

Additional observations from a re-analysis of the deposited data

How the results depend on the processing

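Vegfa, Vegfc, Pgf, Flt1, Angpt1 and Angpt2 kept their direction and their side of the threshold under every alternative run, with log2 fold changes of 1.78 to 2.04, -2.75 to -0.97, 0.46 to 1.93, 0.46 to 1.05, 0.71 to 4.07 and -0.93 to -0.49. Scaling by reads in the table turned Vegfb to -0.11, Agpat5 to -0.12, Mad2l1bp to -0.04 and Pomp to -0.06. It moved Kdr to -0.46, Dnajc4 to -0.36, Pan3 to -0.22 and Vhl to -0.27, each with a call. It raised the falls among TEK relays from 2 to 4 and those among oxygen sensing genes from 5 to 6. Quantile normalization turned Vegfb to -0.04, Kdr to 1.63, Agpat5 to -0.04 and Pomp to -0.15, and ended the calls of Foxo1 (-0.11) and Nudt22 (-0.04). Without a filter the falls among other angiogenic factors rose from 2 to 4 and those among fibroblast and mesenchymal markers from 1 to 2, because more genes were tested. With a library left out, Vegfb ranged from 0.04 to 0.14, with a call only without ATRX KO replicate 2, the falls among oxygen sensing genes ranged from 3 to 5, and Pan3 turned to 0.01 without ATRX WT replicate 2. Vhl gave a call without ATRX KO replicate 3 (-0.12, limma adjusted p = 0.034). For the other changes the cause was not tested.

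The replicate block gave 5287 genes higher and 5564 lower, against 5321 and 5604, and it ended the calls of Agpat5 (adjusted p = 0.077), Egln3 (0.052) and Fggy (0.09), so that the falls among oxygen sensing genes went from 5 to 4. It moved no other list's counts and left the members' calls as they were, and the neighbour counts of Vegfa, Pgf, Flt1, Angpt2 and Tek moved by 1 call each. Same-numbered libraries deviated together with correlations of -0.0455, 0.0513 and -0.0383 over genes, so the numbers do not pair the libraries. Read depth limits Kdr (100 and 189 reads over a group), Vegfc (35 and 327) and Angpt1 (287 and 74).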
